A study of Homo sapiens with 3 samples.

Results

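The 10 genes described here encode the proteins that make, sense and clear adenosine outside the cell: *NT5E*, *ENTPD1*, *ENTPD2*, *ENTPD3*, *ADORA1*, *ADORA2A*, *ADORA2B*, *ADA*, *SLC29A1* and *SLC29A2*. They are 10 of the 23131 gene rows in an RNA-seq table of HCT-116 cells, found by gene symbol. They were chosen by pathway, starting from *NT5E*, which earlier results on these same libraries had placed among the transcripts that were lower with anti-*APC* siRNA, so the level of *NT5E* is a description and not a test. HCT-116 is a human colon carcinoma line that is wild-type for *APC* and carries the ΔSer45 form of *CTNNB1*, which encodes a β-catenin that resists degradation; every group shares this background. Cells received pooled anti-*APC* siRNA, pooled scrambled siRNA or reagent without siRNA in 2 transfections on successive days, and were harvested 48 hours after the last one. The series has 3 libraries, 1 per condition. The anti-*APC* and the untransfected library were compared. The library from cells given scrambled siRNA was not analysed here. The sample labels call the control untransfected in its title and mock-transfected, with reagent only, in its treatment. Effects of *APC* silencing and of siRNA delivery cannot be told apart in this pair, and no difference has a replicate check.

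ATP that leaves a cell is cut down at the outer membrane. Ectonucleotidases of the ENTPD family remove phosphates from ATP and ADP to leave AMP, and the GPI-anchored enzyme NT5E (CD73) turns AMP into adenosine. Adenosine then binds G protein-coupled receptors: ADORA1 couples to Gi and lowers cyclic AMP, whereas ADORA2A and ADORA2B couple to Gs and raise it. The equilibrative transporters SLC29A1 and SLC29A2 carry adenosine across the plasma membrane, and ADA deaminates it to inosine. In intestinal epithelium and in tumours the pathway is known for its effects on barrier function, fluid secretion and the restraint of immune cells.

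Transcript levels are given as FPKM, fragments scaled to transcript length and to the number of mapped reads, which the authors computed with Cufflinks and Cuffdiff and which can be compared between genes. The ratio of a gene is anti-*APC* siRNA over untransfected. Single-read steps in the lowest values placed the depth near 23200000 reads for the anti-*APC* library and 25400000 for the untransfected library. From these depths and transcript lengths an approximate number of reads was obtained for each gene, with an exact 95% binomial (Clopper-Pearson) interval for its ratio. These intervals cover counting error only, not variation between cultures. A gene was counted as higher or lower when it differed at least 1.5-fold and reached 1 FPKM in at least 1 library, with both libraries above 0. Of the 12256 genes that could be compared, 2.81% were higher and 7.07% lower by this rule, and the median log2 ratio was -0.05. *APC* itself had 9.15 FPKM in the untransfected and 3.43 FPKM in the anti-*APC* library. The WNT feedback gene *AXIN2* had 4.11 and 28.7 FPKM. The epithelial markers *EPCAM*, *KRT8*, *KRT18*, *KRT19*, *CDH1* and *CDX2* were present at 6.77 FPKM or more in both libraries, whereas *VIL1* was listed at 0 in the untransfected and 0.0313 in the anti-*APC* library. The 5 leukocyte and 3 endothelial markers did not exceed 0.182 FPKM, and of 5 fibroblast markers *COL1A1* alone did, with 2.85 and 3.08 FPKM.

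*NT5E*, which encodes the enzyme that releases adenosine from AMP, had 44.9 FPKM in untransfected cells and 29.8 FPKM after anti-*APC* siRNA. The anti-*APC* level was 66.3% of the untransfected level, a log2 ratio of -0.59 with a counting interval of -0.67 to -0.52, from approximately 4071 and 2463 reads. Of the 12256 genes compared, 845 (6.89%) had a lower ratio. The gene lies on chromosome 6 of GRCh37 from 86159302 to 86205509 on the plus strand, and no other gene of the table shares its locus. The inverse ratio of 1.51 is just past the 1.5-fold rule, and it is 1.45 once the median of all genes is subtracted, so the call of *NT5E* depends on that choice while its direction does not. *NT5E* was well expressed: 19.0% of the compared genes had a higher level in untransfected cells. In bulk RNA, fewer cells with the transcript and less transcript per cell cannot be told apart. Of the 6 epithelial markers that could be compared, 1 was lower by the 1.5-fold rule, *CDH1*, which encodes E-cadherin, with a log2 ratio of -0.65. The median log2 ratio of the 6 was -0.35, and all 6 ratios were below 1, as were those of 7200 of the 12256 genes compared. The counting interval of *CDX2*, -0.28 to 0.05, included 0. The summed level of the 7 epithelial markers was 1649 FPKM in the untransfected and 1294 FPKM in the anti-*APC* library. Their part in the level of *NT5E* was not tested. The 3 genes with levels nearest to those of *NT5E* in both libraries, among 11815 genes with at least 1 FPKM in each, were *NDUFA7*, *STMN3* and *SNORD124*. The distances were 0.0284, 0.0461 and 0.0472 on the log2 scale over 2 libraries.

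Among the ENTPD genes of the 10, *ENTPD2* was far less abundant than *NT5E*, *ENTPD1* could not be measured and *ENTPD3* was listed at 0. *ENTPD2*, which removes phosphate mainly from ATP, had 5.29 FPKM in untransfected and 3.69 FPKM in anti-*APC* cells. It was thus at 69.7% of the untransfected level, a log2 ratio of -0.52 with a counting interval of -0.80 to -0.25. The interval lies below 0, but the 1.43-fold difference did not reach 1.5-fold. The gene lies on chromosome 9 from 139942559 to 139948513 on the minus strand. Its promoter, the 250 bases before the start in RefSeq (GRCh38.p14), was placed on GRCh37 by sequence match at chr9:139948514-139948763, minus strand. It is shown because, of the 13 windows listed for 8 of the 10 genes, it was the 1 window clear of GENCODE exons and of the gene's own locus in the table. The window listed for *NT5E* lies within an exon of the gene. Capitals mark words found on either strand, which were the TCF/LEF words AACAAAG or ATCAAAG or TACAAAG or TTCAAAG, the AP-1 words TGACTCA or TGAGTCA, the cyclic AMP response word TGACG, added after sequences had been seen, and the GC box GGGCGG.
ENTPD2: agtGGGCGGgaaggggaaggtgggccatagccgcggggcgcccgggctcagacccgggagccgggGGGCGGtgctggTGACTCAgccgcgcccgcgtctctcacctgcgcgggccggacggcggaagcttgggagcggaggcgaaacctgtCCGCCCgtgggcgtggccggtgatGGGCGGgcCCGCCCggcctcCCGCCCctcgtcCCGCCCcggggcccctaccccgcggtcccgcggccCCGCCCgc

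The *ENTPD2* window held 1 AP-1 word, which begins 173 bases before the start, and 8 GC boxes. It held no TCF/LEF word and no TGACG, which says only that those letters are missing from this stretch. Among 35116 windows of the same length 4.2% held an AP-1 word, 42.6% a GC box, 12% a TCF/LEF word and 21.2% the word TGACG. A match is a description of the sequence and not a binding site.

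In both libraries *NT5E* was the more abundant of the measured surface enzymes. *NT5E* exceeded *ENTPD2* 8.49-fold in the untransfected and 8.08-fold in the anti-*APC* library, so the 2 enzymes stood in a similar proportion in both. *ENTPD1* (CD39), the best known partner of *NT5E* on immune and endothelial cells, is listed at 0 in both libraries with the status FAIL. All 6 genes that Cuffdiff placed at its locus on chromosome 10, 97471536 to 97849992, failed together, so these zeros carry no information on expression. *ENTPD3* is also listed at 0 in both libraries, with the status OK. At its transcript length 3 reads would correspond to 0.0443 FPKM in the anti-*APC* and 0.0405 FPKM in the untransfected library. Cuffdiff placed *ENTPD3* at 1 locus with *FLJ36665*, which had 0.0432 and 0.120 FPKM in the anti-*APC* and untransfected library, and how reads were divided between them was not tested.

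**Figure D1:**
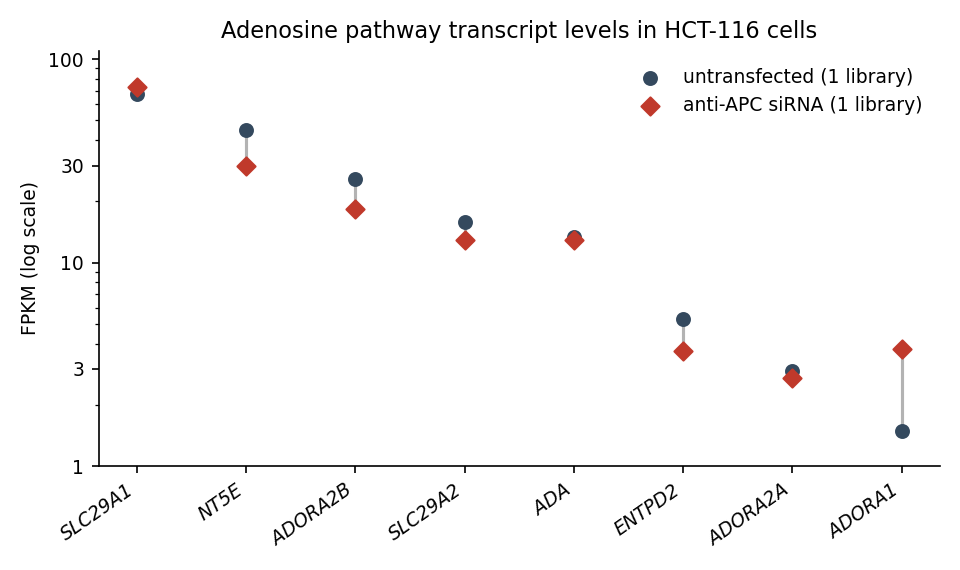
FPKM (log axis) of the 8 measured adenosine pathway genes, ordered by level in untransfected cells; circles are the untransfected and diamonds the anti-*APC* library, 1 library each, joined by a grey line. *SLC29A1* was the highest at 67.7 and 72.6 FPKM, *NT5E* lay at 44.9 and 29.8 FPKM, and *ADORA1* moved from the bottom, 1.49 FPKM, to 3.77 FPKM, above *ENTPD2* and *ADORA2A*.

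The receptors did not move together. *ADORA1*, a Gi-coupled receptor, had 1.49 FPKM in untransfected cells and 3.77 FPKM after anti-*APC* siRNA, a 2.53-fold higher level. Its log2 ratio was 1.34, with a counting interval of 1.01 to 1.67 from approximately 110 and 254 reads. Only 75 of the compared genes (0.612%) had a higher ratio. Adding 1 FPKM to both levels gave 0.94 on the log2 scale, and *ADORA1* would not be counted if 5 FPKM were required. GENCODE places the gene on chromosome 1 of GRCh37 from 203059782 to 203136533 on the plus strand, and the locus in the table begins further in, at 203096836, with no second gene. *ADORA2B*, a Gs-coupled receptor of low affinity for adenosine and the main adenosine receptor of these cells by transcript, had 25.9 FPKM in untransfected cells and 18.4 FPKM after anti-*APC* siRNA. This was 71.1% of the untransfected level, a log2 ratio of -0.49 with a counting interval of -0.64 to -0.35, and short of 1.5-fold. *ADORA2B* lies on chromosome 17 from 15848444 to 15879060, alone at its locus. *ADORA2A*, the Gs-coupled receptor of high affinity, had 2.92 and 2.70 FPKM in the untransfected and anti-*APC* library. Its interval, -0.42 to 0.20 on the log2 scale, includes 0, so a change smaller than this could not be detected at this depth. *ADORA2A* shares its locus with *C22orf45*, which had 0.218 and 0.228 FPKM. The fourth receptor gene, *ADORA3*, whose product also couples to Gi, was listed at 0 in untransfected cells and at 0.0194 FPKM with anti-*APC* siRNA, below the 0.0735 FPKM that 3 reads would give.

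Summed over the 4 receptor genes, the level was 30.3 FPKM in the untransfected and 24.9 FPKM in the anti-*APC* library. *ADORA2B* made up 85.5% of this sum in untransfected cells and 74.0% after anti-*APC* siRNA, and *ADORA1* made up 4.91% and 15.1%. The level of *ADORA2B* was 17.4 times that of *ADORA1* in the untransfected library and 4.90 times in the anti-*APC* library. *ADORA2A* was at 1.96 times the level of *ADORA1* in untransfected cells, and this order was turned with anti-*APC* siRNA, where *ADORA1* was at 1.39 times the level of *ADORA2A*. *ADORA1* thus made up a larger share of the sum with anti-*APC* siRNA and *ADORA2B* a smaller one, and *ADORA2B* was the most abundant receptor transcript in both libraries.

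**Figure D2:**
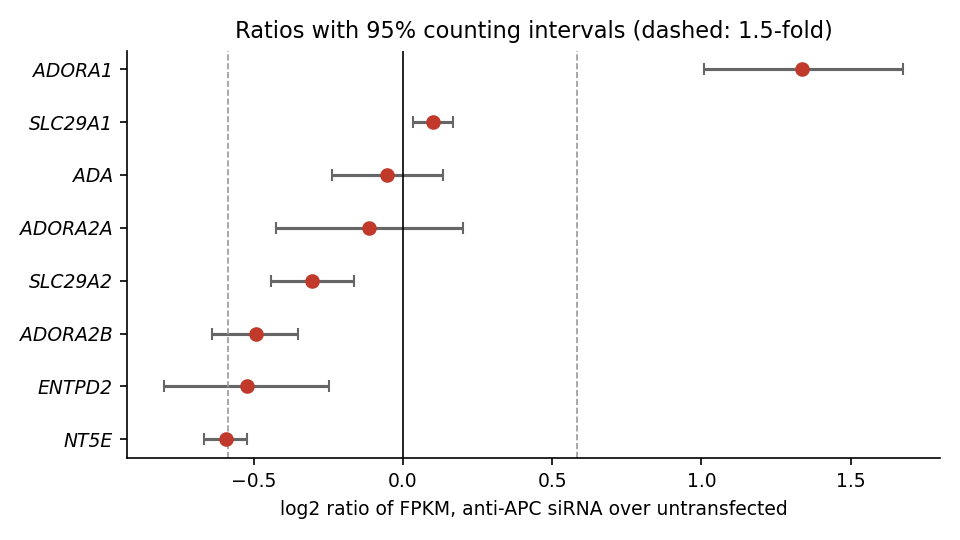
Log2 ratio of FPKM (anti-*APC* siRNA over untransfected, x axis) for the 8 measured genes, with exact 95% counting intervals as bars; dashed lines mark 1.5-fold. *ADORA1* stands alone on the right at 1.34, *NT5E*, *ENTPD2* and *ADORA2B* lie between -0.59 and -0.49 on the left, and the intervals of *ADORA2A* and *ADA* include 0.

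Among the genes that clear adenosine, differences were small. *SLC29A1* (ENT1), the principal equilibrative nucleoside transporter, was the most abundant of the 10 genes, with 67.7 FPKM in untransfected cells and 72.6 FPKM after anti-*APC* siRNA. Its log2 ratio was 0.10 with a counting interval of 0.03 to 0.17, a 1.07-fold difference. *SLC29A2* (ENT2), its paralog, had 15.9 and 12.9 FPKM in the untransfected and anti-*APC* library, a log2 ratio of -0.30 with an interval of -0.44 to -0.16. *SLC29A1* therefore exceeded *SLC29A2* 4.25-fold without and 5.62-fold with anti-*APC* siRNA. *ADA* had 13.4 FPKM in untransfected and 12.9 FPKM in anti-*APC* cells, a log2 ratio of -0.05 with an interval of -0.24 to 0.13. That ratio is close to the median of all genes compared. *SLC29A1* lies on chromosome 6 from 44187290 to 44201879, *SLC29A2* on chromosome 11 from 66129992 to 66139685 and *ADA* on chromosome 20 from 43213537 to 43280893. Cuffdiff placed *ADA* on a shorter stretch, 43248163 to 43280376. Relative to the level of *NT5E*, that of *SLC29A1* was 1.51 times as high in the untransfected and 2.44 times in the anti-*APC* library. *NT5E* exceeded *ADA* 3.36-fold in untransfected cells and 2.31-fold with anti-*APC* siRNA.

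Of the 10 genes 8 could be compared. By the 1.5-fold rule 1 was higher (*ADORA1*) and 1 lower (*NT5E*), beside 2.81% and 7.07% of all genes compared. *NT5E* was selected on this same contrast, so nothing is read from its count. Of the 8 genes, 6 had a ratio below 1 and 2 above it, beside 7200 of the 12256 genes with a ratio below 1, and the intervals of *ADA* and *ADORA2A*, which are among the 6, include 0. The median log2 ratio of the 8 was -0.21, beside -0.05 for all genes. *NT5E*, selected on this contrast, had the lowest ratio of the 8 and enters both the 6 below 1 and this median. Neither is therefore read as a shift of the 8 genes. In the order of levels in untransfected cells (*SLC29A1*, *NT5E*, *ADORA2B*, *SLC29A2*, *ADA*, *ENTPD2*, *ADORA2A*, *ADORA1*), *ADORA1* was last, whereas in the anti-*APC* library it stood above *ENTPD2* and *ADORA2A*. *ADORA1* and *ENTPD2* were then close to each other, with 3.77 and 3.69 FPKM, as were *SLC29A2* and *ADA*, both near 12.9 FPKM. Whether neighbours in this order differ could not be tested with 1 library each.

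**Figure D3:**
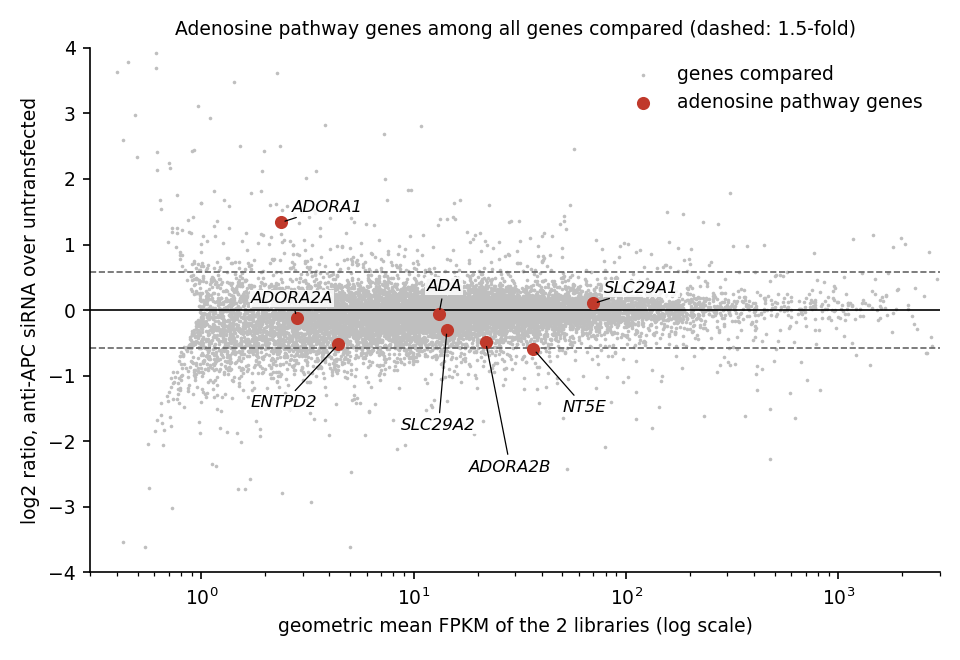
Log2 ratio (y axis) against the geometric mean FPKM of both libraries (log x axis) for the genes compared (grey points, 19 of 12256 lie outside the axes) and the 8 measured adenosine pathway genes (red); dashed lines mark 1.5-fold. *ADORA1*, at a log2 ratio of 1.34, lies above most genes of its level, *NT5E*, at -0.59, lies at the lower dashed line, and the other 6 lie between the lines.

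Genes around this pathway were followed through lists of related genes. The counts in each list stand beside 2.81% higher and 7.07% lower over all genes compared. Of 15 genes listed as other ectonucleotidases 5 could be compared, and 1 was lower. This was *ENPP1*, which splits ATP into AMP and pyrophosphate, with 3.34 FPKM in untransfected cells and 1.56 FPKM with anti-*APC* siRNA. The log2 ratio was -1.10. The most abundant of that list, *ENTPD6* and *ENTPD4*, had log2 ratios of -0.35 and 0.17. The list was not limited to enzymes of the cell surface, so its count and median do not describe surface enzymes alone. Of 7 other receptor, transporter and ADA-binding genes 3 could be compared and none was past 1.5-fold. The most abundant were *SLC29A4*, a transporter of monoamines and adenosine, at 4.15 and 3.68 FPKM, and *SLC29A3*, an intracellular transporter, at 3.29 and 3.61 FPKM in the untransfected and anti-*APC* library. Of 17 P2 receptors, which sense ATP and related nucleotides themselves, 4 could be compared and none was past 1.5-fold. Their median log2 ratio was -0.35, and all 4 ratios were below 1, as were those of 7200 of the 12256 genes. The most abundant were *P2RY11*, with a log2 ratio of -0.15 and an interval of -0.47 to 0.16 that includes 0, and *P2RX4*, with -0.42. Cuffdiff placed *P2RY11* at a locus of 6 genes, and how reads were divided between them was not tested. *P2RX5* failed at a locus of 5 genes.

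Of 23 genes of intracellular nucleotide and adenosine metabolism 18 could be compared and 1 was lower, *NT5M*, a mitochondrial nucleotidase, with 1.33 and 0.659 FPKM. Its counting interval, 0.288 to 0.801 for the ratio, is wide. *AHCY*, which splits S-adenosylhomocysteine into homocysteine and adenosine, had 179 FPKM in untransfected and 149 FPKM in anti-*APC* cells. *APRT*, which salvages adenine, had 143 and 101 FPKM, a ratio of 0.711 that stayed short of 1.5-fold. The median log2 ratio of the list was -0.09. Of 9 genes linked to ATP release 5 could be compared, none past 1.5-fold. *PANX1*, a channel for ATP, had the highest log2 ratio, 0.55, with 21.4 FPKM in untransfected and 31.3 FPKM in anti-*APC* cells, and it passes 1.5-fold when the median of all genes is subtracted. *GJB2*, a connexin, had a log2 ratio of -0.38.

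Among 25 genes of cyclic AMP signalling, which carries the signal of the adenosine receptors onward, 18 could be compared and 1 was lower. *PRKACA*, a catalytic subunit of protein kinase A, had 31.7 FPKM in untransfected and 20.0 FPKM in anti-*APC* cells, a log2 ratio of -0.66. Its paralog *PRKACB* was on the other side, with 62.0 and 85.7 FPKM and a log2 ratio of 0.47, short of 1.5-fold. *PRKACA* made up 33.8% of the summed level of the pair in untransfected cells and 18.9% after anti-*APC* siRNA. The most abundant genes of the list were *GNAS*, which encodes the Gs α subunit, at 406 and 397 FPKM, and *PRKAR1A*, a regulatory subunit, at 131 and 128 FPKM. The median log2 ratio of the list was -0.03.

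**Figure D4:**
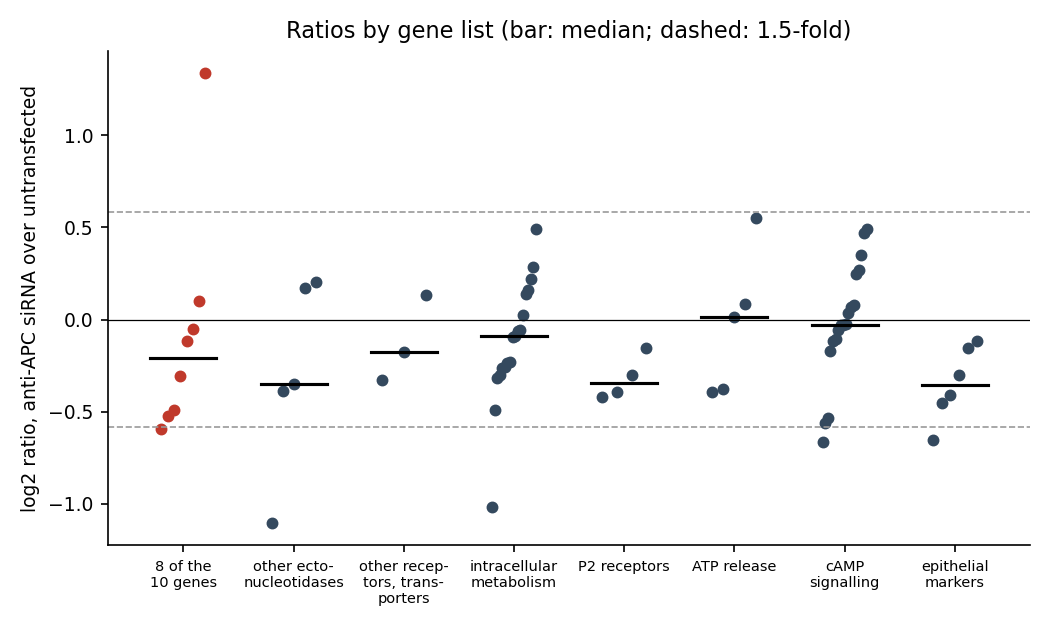
Log2 ratio (anti-*APC* siRNA over untransfected, y axis) of each gene that could be compared, for the genes of the pathway, its related lists and the epithelial markers, with each list's median as a bar and 1.5-fold as dashed lines. *ADORA1* is the only point above the upper line, *ENPP1*, *NT5M*, *PRKACA*, *CDH1* and *NT5E* are at or below the lower one, and the medians of the lists plotted run from -0.35 (epithelial markers, other ectonucleotidases and P2 receptors) to 0.01 (ATP release).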

How the data were processed

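RNA from HCT-116 cells was sequenced as single-read TruSeq libraries. Per the labels, the authors used Cufflinks and Cuffdiff on build hg19; aligner, annotation and versions are not given in the sources used here. The table used here holds FPKM values that the authors computed for 2 libraries, anti-*APC* and untransfected. Their table also holds the fold change, test statistic, p and q of their own comparison, which were not used. Ratios were computed without a pseudocount or a test, since each condition has 1 library. The log2 ratio of 1 read in each library was 0.13, the commonest value among 3227 genes below 0.5 FPKM (382 genes within 0.0015). Depth was the commonest value that transcript length gave over 244 genes with 1 read against 2 (105 near it). Coordinates and canonical transcript lengths are from GENCODE 44 on GRCh37. The depth step and the fold rule were tested on simulated reads. These were drawn with the transcript lengths that the depth step uses, and only abundant genes were changed, by more than 1.5-fold. Accuracy with other transcript lengths, at low levels or close to 1.5-fold was therefore not tested. Members and gene lists were chosen with earlier results of these data known. From each list, genes past 1.5-fold and the 2 most abundant are named; *ADORA3*, *P2RX5*, *PRKACB*, the genes below 1 FPKM and locus neighbours were added after their values were seen. Alternatives were other folds, minimums, pseudocounts, scalings and loci with 1 gene. Python 3.11.15, numpy 2.4.6, pandas 2.3.3, scipy 1.17.1 and matplotlib 3.10.9 were used.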

Additional observations from a re-analysis of the deposited data

How the results depend on the processing

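The ratios of the 8 measured genes were recomputed under 5 other settings each, and 39 of the 40 values stayed within the gene's counting interval. The median, TPM and upper quartile settings subtract 1 constant from every log2 ratio, -0.05, 0.06 and -0.04. Each constant is smaller than the distance from any of these ratios to the ends of its interval. Under these settings staying inside was thus fixed in advance. A pseudocount of 0.1 FPKM is small beside the levels of these genes and was a weak check too. It moved *ADORA1* the most, from 1.34 to 1.28 on the log2 scale. The value outside was that of *ADORA1*, at 0.94 on the log2 scale with a pseudocount of 1 FPKM. The sign changed once, for *ADA*, which came to 0.0012 after the median was subtracted. The count of lower members (1, *NT5E*) became 3 at the lower fold threshold tried, with *ENTPD2* and *ADORA2B*, and 0 at 2-fold, with a pseudocount of 1 FPKM, after subtraction of the median, and at an equal upper quartile. The count of higher members (1, *ADORA1*) became 0 with a minimum of 5 FPKM. Of the 53 other pathway genes compared, 0 were higher and 3 lower, beside 2.81% and 7.07% of all genes compared. At the lower fold threshold these counts were 5 and 13 of 53, beside 914 and 2326 of 12256 genes. Without a minimum they were 4 and 10 of 75, beside 1084 and 2078 of 16289. With a minimum of 5 FPKM 1 of 40 was lower, beside 413 of 9441. At TPM 5 of 53 were lower, beside 1099 of 12256. *PANX1* was the 1 higher gene both with the median subtracted and with an equal upper quartile. Over the 12256 genes compared, 344 higher and 866 lower became 914 and 2326 at the lower fold threshold and 137 and 202 at 2-fold. Without a minimum 16289 genes were compared, and 1084 were higher and 2078 lower. With 5 FPKM 9441 were compared, and 206 were higher and 413 lower. A pseudocount of 1 FPKM left 462 lower. Loci with 1 gene left 9283 genes to compare, and 196 of these were higher. No paired analysis was possible because each condition has 1 library, and for the same reason no replicate could be left out. A ratio such as that of *ADORA2A*, from approximately 188 and 159 reads, could not be told from 1 at this depth.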

Other observations

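Some genes near the pathway were below the 1 FPKM minimum and differed between the libraries by more than 1.5-fold. *BST1*, an ectoenzyme that uses NAD, had 0.425 FPKM in untransfected and 0.963 FPKM in anti-*APC* cells, with a counting interval of 1.34 to 4.06 for the ratio. *ALPL*, the tissue-nonspecific alkaline phosphatase, which can also release adenosine from AMP, had 0.358 and 0.0886 FPKM from approximately 23 and 5 reads, with an interval of 0.0707 to 0.640. Cuffdiff gave *ALPL* the status LOWDATA. *P2RX7*, an ATP-gated channel, had 0.334 and 0.179 FPKM, with an interval of 0.302 to 0.921. These 3 were picked from a larger number of such genes after their values were seen.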
